A study of Mus musculus with 20 samples.

Results

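The 10 amino acid transporter genes Slc7a5, Slc3a2, Slc1a5, Slc1a4, Slc7a1, Slc7a2, Slc38a1, Slc38a2, Slc38a3 and Slc38a4 were compared by RNA sequencing between mouse liver tumors and livers. The members were taken as a list of gene symbols, and all 10 were found among the 50559 genes of the deposited counts. Every one of them passed the filter on low counts, at least 1 CPM in at least 5 libraries, which 14333 genes passed. CPM, a normalized read count, is the count of a gene scaled to a library of fixed size, with TMM factors that correct for differences in composition. The 20 libraries came from female C57BL/6J mice, 5 from each of 4 groups. Tumors were induced by hydrodynamic injection, a rapid tail vein injection that drives plasmids into hepatocytes, at 6 to 8 weeks of age. All 3 tumor groups received a transposon plasmid with MYC under the EF1a promoter, integrated by the Sleeping Beauty transposase. Aldafermin+MYC tumors also carried Aldafermin, an engineered analog of the human hormone FGF19. FGF19+MYC tumors carried FGF19 itself, and sgTrp53+MYC tumors a CRISPR plasmid with Cas9 and a guide against Trp53. The livers are labelled non treated, whereas the study's methods describe control mice that received a plasmid with a red fluorescent protein. The growth of a tumor and MYC were thus shared by all 3 tumor groups and absent from the livers. RNA was taken from individual tumors, which per the study's methods came from independent mice, and the p-values measure the spread between these samples.

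Amino acids cross the plasma membrane through carriers of several solute carrier (SLC) families. Slc7a5 (LAT1) imports leucine and other large neutral amino acids in exchange for glutamine, and it reaches the membrane only as a pair with Slc3a2 (CD98, 4F2 heavy chain), a glycoprotein that itself carries no substrate. Slc1a5 (ASCT2) and Slc1a4 (ASCT1) exchange small neutral amino acids, glutamine being a substrate of the former. Slc7a1 (CAT1) and Slc7a2 (CAT2) import arginine, lysine and ornithine. Slc38a1, Slc38a2 and Slc38a4 (SNAT1, SNAT2 and SNAT4) import neutral amino acids together with sodium, and Slc38a3 (SNAT3) carries glutamine, asparagine and histidine in both directions. In normal liver, periportal hepatocytes take up glutamine and pass its nitrogen to the urea cycle, and arginase there breaks arginine down to urea and ornithine.

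Reads assigned to genes numbered 18004977 to 44427184 per library in Aldafermin+MYC tumors, FGF19+MYC tumors and livers, and 54042455 to 66354724 in sgTrp53+MYC tumors. The sgTrp53+MYC libraries stood alone in a second table. Reads set aside because they overlapped more than 1 gene made up 11.1% to 14.6% of their reads, against 3.03% to 6.30% in the other libraries. What belongs to the table and what belongs to the tumors cannot be told apart in any comparison with this group. Trp53 itself had 18.7 to 79.9 CPM in sgTrp53+MYC tumors, 90.8 to 176 in Aldafermin+MYC tumors, 109.7 to 155 in FGF19+MYC tumors and 28.8 to 36.4 in livers. A small edit by Cas9 need not change a read count, so these levels do not check the edit. The 6 hepatocyte markers (Alb, Apoa1, Ttr, Hnf4a, Cyp2e1 and Tat) were all detected in every group and summed to 174069 to 220425 CPM in livers. In tumors the same sum was 7907 to 21095, 8193 to 27383 and 2352 to 9285 CPM in Aldafermin+MYC, FGF19+MYC and sgTrp53+MYC tumors, respectively. Some tumors stood apart from their group in markers of other cells. sgTrp53+MYC replicate 2 had 760 CPM of 4 biliary markers (Krt19, Krt7, Epcam and Spp1), against 3.15 to 40.0 CPM in the other sgTrp53+MYC tumors. Aldafermin+MYC replicate 3 had 924 CPM of 4 stellate cell and fibroblast markers, Lrat, Dcn, Col1a1 and Des (82.9 to 288 in the rest of its group). Col1a1 alone held 871 CPM of this. In Aldafermin+MYC tumors Lrat and Dcn reached at most 2.62 and 41.3 CPM, below livers (19.9 to 34.4 and 151 to 240), and Des at most 18.8 (8.57 in livers). Aldafermin+MYC replicate 5 had 529.6 CPM of 3 red cell markers (26.7 to 109 in the rest). Over all genes, pairs of libraries of a group were compared by chi-square for each degree of freedom. Aldafermin+MYC replicate 5, FGF19+MYC replicate 1 and sgTrp53+MYC replicate 1 each differed most from the rest of their own group. Calls of the 10 genes that changed when any of these libraries was left out are given beside the result.

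Promoter sequences are shown for 3 genes whose transcripts moved in different directions, Slc7a1, Slc1a4 and Slc38a4. They come from RefSeq on build GRCm38.p6, run 5′ to 3′ on the strand of the gene and end at the transcription start. RefSeq windows were matched for 5 of the 10 genes, Slc3a2, Slc1a4, Slc7a1, Slc38a2 and Slc38a4, the first listed window being used where a gene had several. Capitals mark CG dinucleotides in Slc7a1 (chr5:148399905-148400154, minus strand) and Slc38a4 (chr15:97055957-97056206, minus strand). In Slc1a4 (chr11:20332704-20332963, minus strand, up to 10 bases past the start) they mark a match to the C/EBP-ATF response element.
Slc7a1: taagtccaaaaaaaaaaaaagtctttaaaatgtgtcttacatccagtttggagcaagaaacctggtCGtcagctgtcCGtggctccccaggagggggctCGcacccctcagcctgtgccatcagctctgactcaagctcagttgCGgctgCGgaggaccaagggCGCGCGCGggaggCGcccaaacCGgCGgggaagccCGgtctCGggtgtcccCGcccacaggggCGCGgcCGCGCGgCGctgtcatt
Slc38a4: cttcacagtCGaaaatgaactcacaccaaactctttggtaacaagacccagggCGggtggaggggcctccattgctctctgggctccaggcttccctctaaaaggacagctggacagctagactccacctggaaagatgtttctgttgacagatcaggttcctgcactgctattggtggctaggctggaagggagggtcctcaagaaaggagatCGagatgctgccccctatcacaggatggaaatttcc
Slc1a4: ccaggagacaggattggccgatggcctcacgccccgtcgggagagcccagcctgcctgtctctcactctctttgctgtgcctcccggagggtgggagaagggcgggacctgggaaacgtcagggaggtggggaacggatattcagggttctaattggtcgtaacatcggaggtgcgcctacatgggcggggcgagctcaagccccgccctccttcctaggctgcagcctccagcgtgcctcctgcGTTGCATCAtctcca
The 250 bases before the start held 21 CG dinucleotides in Slc7a1, which was scarce in liver, and 3 in Slc38a4, one of the most abundant of the 10 in liver. Slc38a2 held 30, Slc1a4 16 and Slc3a2 11, beside a median of 6 over 32851 windows. Slc7a1 and Slc1a4 rose in the tumors and Slc38a2 fell. The response element was searched as TGATGNAAN and the E-box, the site of MYC and related factors, as CACGTG, each on both strands of windows that run 50 bases past the start. Slc1a4 held TGATGNAAN on the strand opposite to the gene, from 5 bases before the start to just past it, as do 4.50% of the 27025 genes. None of the 5 matched genes held CACGTG, which 8.09% of the genes do. A match is a description of letters and no evidence of binding.

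Relative to livers, 9 of the 10 transporters changed in Aldafermin+MYC and in FGF19+MYC tumors and all 10 in sgTrp53+MYC tumors. Slc7a5, Slc3a2, Slc1a5, Slc1a4 and Slc7a1 were higher in all 3 tumor groups. Slc7a2, Slc38a2, Slc38a3 and Slc38a4 were lower in all 3. Slc38a1, low everywhere, passed the threshold against livers in sgTrp53+MYC tumors, while no difference of this gene between tumor groups passed it. In Aldafermin+MYC tumors 5 members rose and 4 fell (edgeR quasi-likelihood test, Benjamini-Hochberg adjusted p under 0.05), where 38.4% of all genes tested rose and 31.9% fell. In FGF19+MYC tumors 5 rose and 4 fell, beside 36.9% and 32.9% of all genes. In sgTrp53+MYC tumors 6 rose and 4 fell, beside 36.9% and 33.0%. The 10 called there became 8 without sgTrp53+MYC replicate 2 and also 8 without liver replicate 4. With 70.3%, 69.7% and 69.9% of all genes past the threshold in either direction, the counts alone say little about these transporters. The CPM ranges did not overlap with livers for 9, 9 and 8 of the 10 members, beside 58.8%, 62.5% and 56.2% of all genes. The median absolute log2 fold change of the 10 members was 2.53, 2.56 and 2.43, beside 1.07, 1.07 and 1.06 over all genes tested. The 10 genes were chosen with earlier results of these data known, so this contrast is a description and no test. The 3 comparisons share the same 5 livers.

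**Figure D1:**
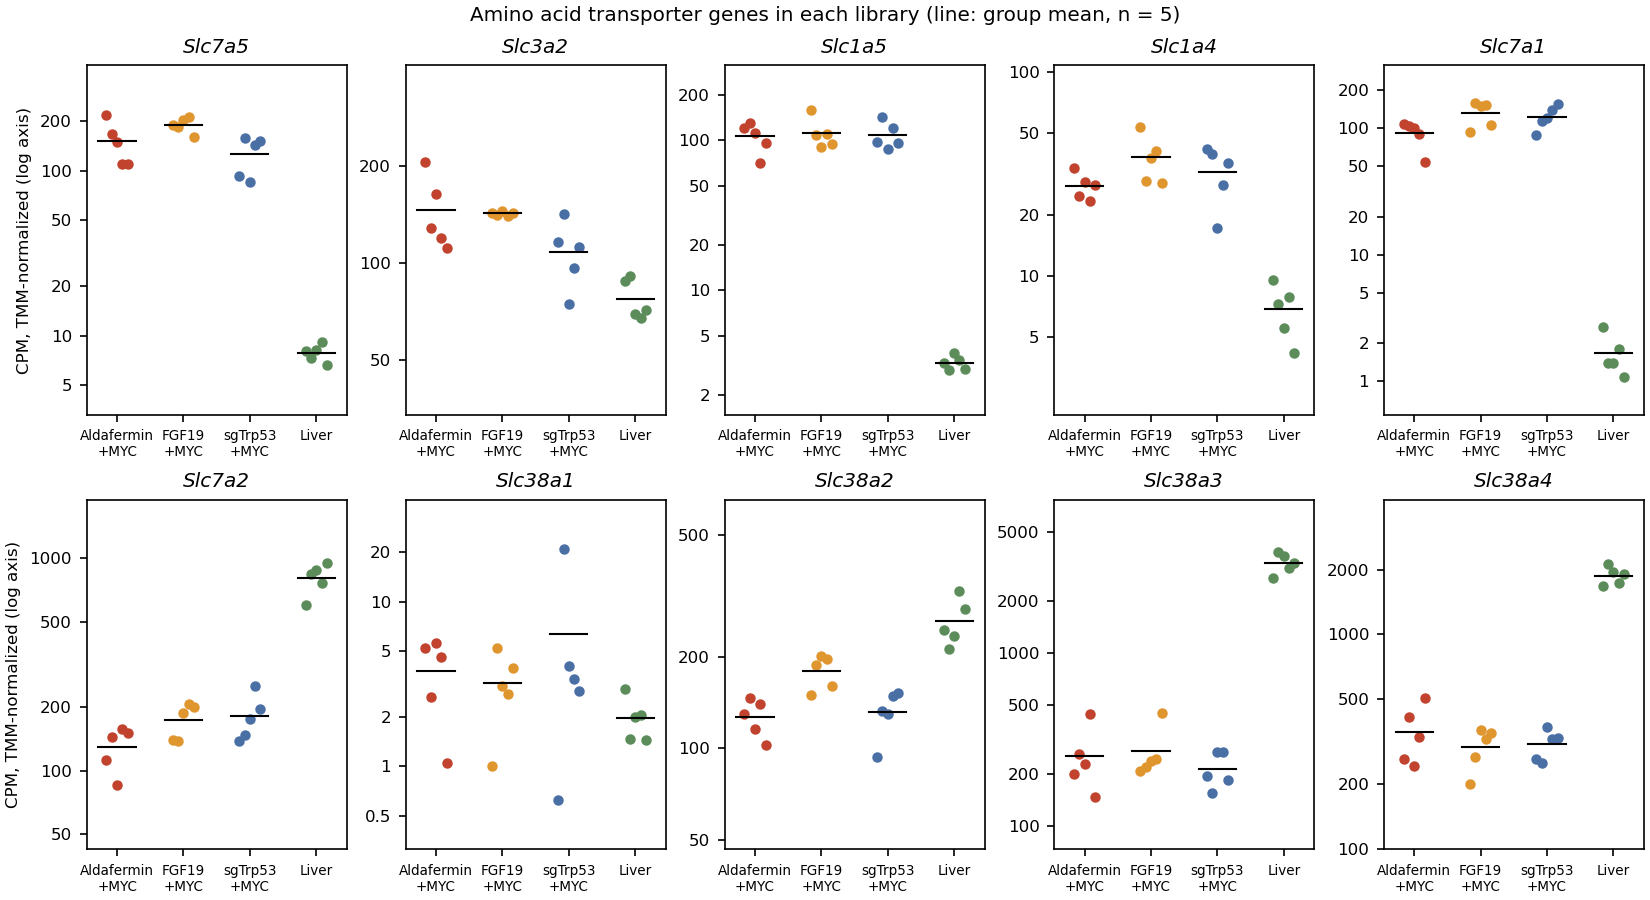
Normalized CPM of each transporter gene (log axis, a scale of its own for each gene) in the 5 libraries of each group, points being libraries and lines group means. Slc7a5, Slc1a5, Slc1a4 and Slc7a1 lie higher in every tumor than in any liver, and Slc7a2, Slc38a2, Slc38a3 and Slc38a4 lie lower in every tumor than in any liver.

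Slc7a5, the leucine exchanger (chromosome 8, 122607884 to 122634433, minus strand, GRCm39), rose from single-digit CPM in liver. Values are given in the order of replicates 1 to 5 throughout. Livers had 8.03, 7.37, 8.17, 9.22 and 6.65 CPM. Aldafermin+MYC tumors had 217, 168, 149, 109.7 and 110.4 CPM, FGF19+MYC tumors 189.6, 185, 202, 211 and 160.4 and sgTrp53+MYC tumors 92.9, 157, 85.6, 143 and 150.3. The lowest tumor, sgTrp53+MYC replicate 3, was far above the highest liver. The log2 fold change over liver was 4.26 (SE 0.22) in Aldafermin+MYC, 4.59 (SE 0.23) in FGF19+MYC and 4.00 (SE 0.22) in sgTrp53+MYC tumors (edgeR quasi-likelihood adjusted p of at most 1.1e-11).

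Slc3a2, its heavy chain (chromosome 19, 8684245 to 8701108, minus strand), rose far less. In livers it had 87.7, 90.8, 69.5, 67.4 and 71.4 CPM. In tumors it had 206, 129, 164, 119 and 111 CPM with Aldafermin+MYC, 143, 141, 145, 140.4 and 143 with FGF19+MYC and 116, 142, 74.4, 96.7 and 112 with sgTrp53+MYC. FGF19+MYC tumors were nearly identical to each other (coefficient of variation 1.30%), and the ranges of sgTrp53+MYC tumors and livers overlapped. The log2 fold changes were 0.92 (SE 0.18, adjusted p = 0.000124), 0.88 (SE 0.18, adjusted p = 0.000185) and 0.48 (SE 0.17, adjusted p = 0.0186) (edgeR quasi-likelihood test). In sgTrp53+MYC tumors the call was lost without liver replicate 4 (0.43, edgeR adjusted p = 0.0515) or without sgTrp53+MYC replicate 2 (0.37, edgeR adjusted p = 0.0677). On the opposite strand, Snhg1 overlaps 15.9% of the exon bases of Slc3a2, and its median level was 44.8, 48.0, 33.7 and 11.7 CPM in the 3 tumor groups and livers. The libraries were stranded, but the strand setting of the counting is not given in the sources used here, and the part of Snhg1 in the Slc3a2 counts was not tested.

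The balance between the chains differed accordingly. Per kilobase of canonical transcript, a scale that allows levels of different genes to be compared, Slc7a5 amounted to 0.0756 ± 0.0165 (SD) of the Slc3a2 level in livers. The ratio was 0.752 ± 0.117 (SD) in Aldafermin+MYC, 0.967 ± 0.101 (SD) in FGF19+MYC and 0.854 ± 0.186 (SD) in sgTrp53+MYC tumors, each mean over 5 libraries. Livers thus held 10.1 to 17.0 heavy chain transcripts for each Slc7a5 transcript, and tumors 0.916 to 1.72. Such a ratio within a library does not depend on how libraries are scaled to each other, but it does depend on the transcript length used, and with all annotated exons the means were 0.126 in livers and 1.26, 1.62 and 1.43 in tumors.

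Slc1a5, the neutral amino acid exchanger that carries glutamine (chromosome 7, 16515265 to 16532731, plus strand), was low in liver. Livers had 3.30, 2.97, 3.84, 3.41 and 2.99 CPM. Among tumors, the Aldafermin+MYC group had 121, 132, 111, 71.0 and 96.8 CPM, the FGF19+MYC group 159, 108, 90.0, 109.7 and 94.3 and the sgTrp53+MYC group 97.1, 143, 87.9, 121 and 96.7. The lowest of the 15 tumors was at 71.0 CPM and the highest of the 5 livers at 3.84 CPM. The log2 fold change over liver was 5.01 (SE 0.22), 5.09 (SE 0.22) and 5.05 (SE 0.22) in the same order, or 32.2, 34.0 and 33.1 times (edgeR quasi-likelihood adjusted p of at most 4.35e-13).

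Its paralog Slc1a4 (chromosome 11, 20252180 to 20282774, minus strand), which prefers alanine, serine and cysteine, rose less. Livers had 9.54, 7.26, 5.57, 7.92 and 4.18 CPM. Aldafermin+MYC tumors had 33.8, 24.8, 28.9, 23.4 and 27.9 CPM, FGF19+MYC tumors 54.0, 29.1, 38.0, 41.1 and 28.5 and sgTrp53+MYC tumors 42.1, 39.7, 17.2, 27.9 and 35.6. The lowest tumor, sgTrp53+MYC replicate 3, was above the highest liver. The log2 fold change was 2.02 (SE 0.25), 2.47 (SE 0.26) and 2.24 (SE 0.26) (edgeR quasi-likelihood adjusted p of at most 8.68e-07). Per kilobase of canonical transcript, Slc1a5 stood at 0.747 ± 0.247 (SD) times Slc1a4 in livers and at 5.55, 4.33 and 5.21 times in Aldafermin+MYC, FGF19+MYC and sgTrp53+MYC tumors. The ratio ran from 0.499 to 1.03 over the livers and from 3.32 to 7.68 over the tumors.

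Slc7a1 (chromosome 5, 148264220 to 148336848, minus strand), the widespread arginine and lysine importer, had the highest fold change of the 10. Livers had 2.65, 1.39, 1.37, 1.78 and 1.08 CPM, which rest on 26 to 38 counts per library. In tumors it had 109, 103, 99.9, 90.6 and 54.4 CPM with Aldafermin+MYC, 94.0, 158, 149, 153 and 107 with FGF19+MYC and 88.1, 113, 121, 139.7 and 156 with sgTrp53+MYC. The lowest tumor value, in Aldafermin+MYC replicate 5, was far above the highest liver. Log2 fold changes were 5.82 (SE 0.28), 6.35 (SE 0.29) and 6.25 (SE 0.29), a rise of 56.4, 81.6 and 76.3 times (edgeR quasi-likelihood adjusted p of at most 1.85e-12).

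The second cationic transporter, Slc7a2 (chromosome 8, 41315431 to 41375345, plus strand), which includes a low-affinity form known from liver, moved the other way. Livers had 605, 844, 882, 770.2 and 949 CPM. Among tumors, the Aldafermin+MYC group had 112, 143, 85.4, 157 and 149.7 CPM, the FGF19+MYC group 139.9, 139, 187, 206 and 198 and the sgTrp53+MYC group 139, 147, 175, 250.1 and 196. Every tumor was below every liver. The log2 fold change was -2.65 (SE 0.21), -2.22 (SE 0.21) and -2.16 (SE 0.21) (edgeR quasi-likelihood adjusted p of at most 2.03e-08). Livers held 210.4 to 814 Slc7a2 transcripts for each Slc7a1 transcript per kilobase. In tumors the mean ratio of Slc7a1 to Slc7a2 was 0.825, 0.844 and 0.749, with single tumors between 0.394 and 1.27. The counts do not separate the isoforms of Slc7a2.

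**Figure D2:**
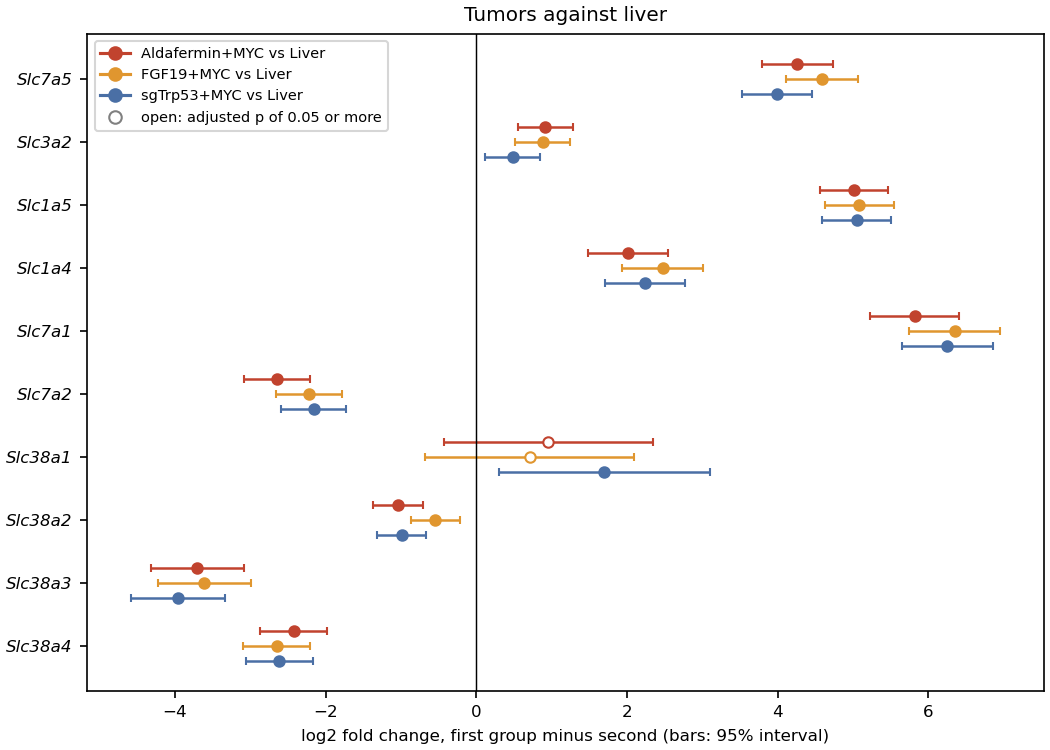
Log2 fold change of each transporter gene in the 3 tumor groups against livers (points, with 95% intervals), filled where the edgeR adjusted p was under 0.05. The changes run from -3.96 for Slc38a3 to 6.35 for Slc7a1, and the 2 open points are those of Slc38a1.

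Slc38a3 (chromosome 9, 107527815 to 107547018, minus strand), the glutamine carrier of hepatocytes, had the highest level of the 10 in liver per kilobase of transcript. Livers had 2688, 3841, 3638, 3102 and 3308 CPM. Aldafermin+MYC tumors had 199.7, 259, 228, 442 and 147 CPM, FGF19+MYC tumors 208, 219, 237, 243 and 447 and sgTrp53+MYC tumors 194, 154, 269, 266 and 183. Aldafermin+MYC replicate 4 and FGF19+MYC replicate 5 were the highest tumors, and all tumors were below all livers. The log2 fold change was -3.70 (SE 0.30), -3.61 (SE 0.30) and -3.96 (SE 0.30), a fall to 7.69%, 8.17% and 6.43% of the liver mean (edgeR quasi-likelihood adjusted p of at most 2.22e-09).

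Slc38a4 (chromosome 15, 96892693 to 96958593, minus strand), the system A transporter typical of liver, came next on this scale. Livers had 1682, 2122, 1943, 1729.7 and 1907 CPM. In tumors it had 262, 409.6, 243, 331 and 503 CPM with Aldafermin+MYC, 199, 269, 359, 324 and 345 with FGF19+MYC and 263, 250.5, 369, 324 and 328 with sgTrp53+MYC. No tumor reached the lowest liver. Log2 fold changes were -2.42 (SE 0.21), -2.65 (SE 0.21) and -2.61 (SE 0.21) (edgeR quasi-likelihood adjusted p of at most 5.79e-09), or 18.6%, 15.9% and 16.4% of the liver mean.

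Slc38a3, Slc38a4 and Slc7a2 were lower than in livers, and so were the hepatocyte markers. The sum of these markers was 6.34% ± 2.78, 7.26% ± 3.88 and 2.50% ± 1.45 (SD, n = 5) of the liver mean in the 3 tumor groups. In bulk tissue, fewer cells of a type and less RNA per cell cannot be told apart. The 2 tumors with the highest marker sums, FGF19+MYC replicate 5 (14.0% of the liver mean) and Aldafermin+MYC replicate 4 (10.8%), were also those with the most Slc38a3 (13.5% and 13.3%). With both left out, a choice made after the data were seen, the log2 fold change of Slc38a3 was -3.99 and -3.87 in the respective groups. Slc38a4 did not follow the same order, its highest tumor being Aldafermin+MYC replicate 5 at 26.8% of the liver mean. Slc7a2 stood at 10.5% to 30.9% and Slc38a4 at 10.6% to 26.8% of the liver mean over the 15 tumors, above the marker sum in each of them (both in 15 of 15 tumors), whereas Slc38a3 was below it in 2 tumors, Aldafermin+MYC replicate 5 and FGF19+MYC replicate 5. This order depended on the marker. Alb made up 82.7% of the sum in livers, and without Alb the sum had a median of 13.0% of the liver mean, with Slc38a4 and Slc7a2 above it in 11 tumors each and Slc38a3 in 3. Hnf4a, a transcription factor that hepatocytes depend on, had a median of 47.0% and was above all 3 genes in every tumor. Markers of fetal liver and hepatocellular tumor (Afp, Gpc3, H19 and Igf2) went the other way. Their sum was 2.80 to 57.3 CPM in livers. It was 23356 to 32606, 19560 to 32216 and 14828 to 20588 CPM in Aldafermin+MYC, FGF19+MYC and sgTrp53+MYC tumors, respectively. The part of residual or less differentiated hepatocytes in the levels of the 3 transporters was not tested.

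**Figure D3:**
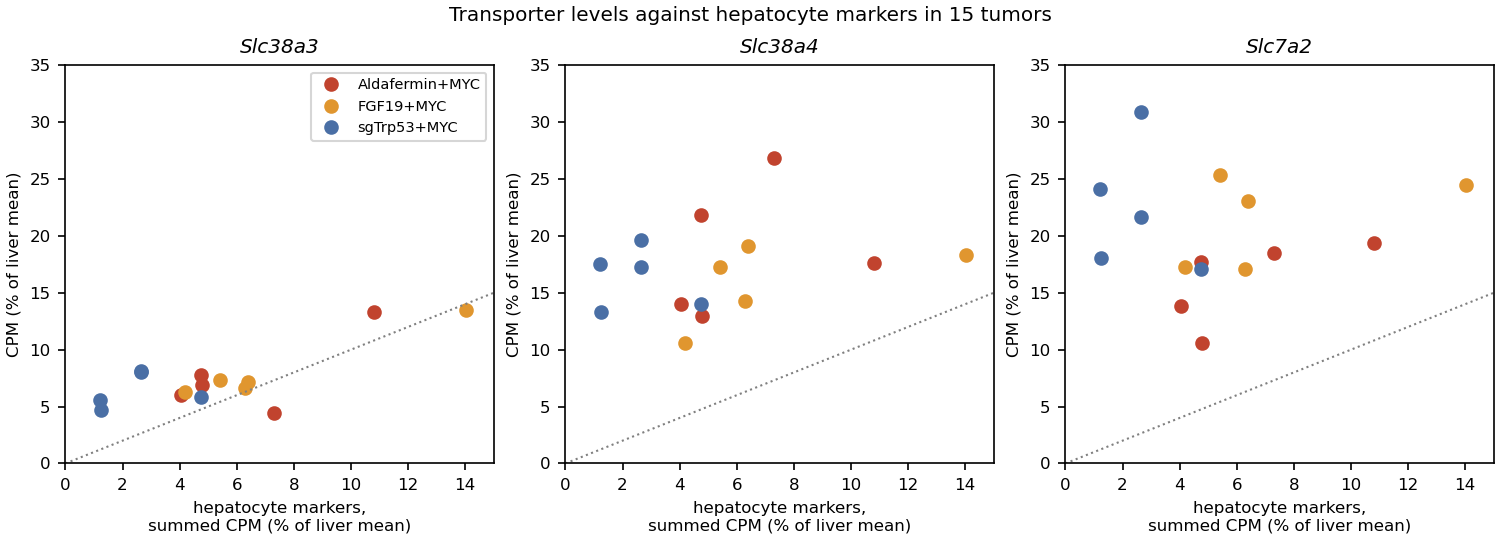
Levels of Slc38a3, Slc38a4 and Slc7a2 in each of the 15 tumors against the summed hepatocyte markers, both as a percentage of the liver mean. The dotted line marks equal percentages, and the points of Slc38a4 and Slc7a2 all lie above it.

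Slc38a2 (chromosome 15, 96585266 to 96597894, minus strand), the system A carrier that cells induce when amino acids are scarce, fell moderately. Livers had 244, 213, 234, 328 and 287 CPM. Among tumors, the Aldafermin+MYC group had 129, 146, 116, 140.3 and 103 CPM, the FGF19+MYC group 149.6, 188, 201, 196 and 160.3 and the sgTrp53+MYC group 93.6, 133, 129, 148 and 152. All tumors were below all livers, FGF19+MYC tumors most narrowly. The log2 fold changes were -1.04 (SE 0.16, adjusted p = 8.26e-06), -0.54 (SE 0.16, adjusted p = 0.00423) and -0.99 (SE 0.16, adjusted p = 1.38e-05) (edgeR quasi-likelihood test). This direction depended on composition scaling. With library totals only, the median of all genes rose from 0.13, 0.06 and 0.07 to 0.97, 0.91 and 0.95, and Slc38a2 stood at -0.18, 0.31 and -0.10, none of them past the threshold. Relative to that median, it was still -1.16, -0.60 and -1.05. Without a filter on low counts the call in FGF19+MYC tumors was lost as well (-0.37, edgeR adjusted p = 0.0926).

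Slc38a1 (chromosome 15, 96469298 to 96541851, minus strand), a glutamine importer of brain and proliferating cells, was scarce in every group. Livers had 2.94, 1.47, 1.99, 2.05 and 1.43 CPM. Aldafermin+MYC tumors had 5.20, 2.63, 5.60, 4.61 and 1.04 CPM, FGF19+MYC tumors 1.00, 5.21, 3.05, 2.76 and 3.97 and sgTrp53+MYC tumors 0.626, 21.0, 4.05, 3.40 and 2.87. The ranges of all 4 groups overlapped, and sgTrp53+MYC replicate 2, the library rich in biliary markers, was by far the highest. The log2 fold change over liver was 0.96 (SE 0.66, adjusted p = 0.204), 0.71 (SE 0.66, adjusted p = 0.349) and 1.70 (SE 0.67, adjusted p = 0.0299) (edgeR quasi-likelihood test). Without sgTrp53+MYC replicate 2 the last value was 0.48 (edgeR adjusted p = 0.423), and without liver replicates 2, 3, 4 or 5 it was 1.59, 1.69, 1.70 and 1.59 with an adjusted p of 0.0649, 0.0526, 0.0507 and 0.0650. Over the other libraries, biliary markers summed to 1.81 to 67.6 CPM in Aldafermin+MYC tumors, 1.95 to 84.8 in FGF19+MYC tumors and 40.0 to 117 in livers. The median of Spp1 alone was 16.6, 37.0 and 79.4 CPM in these groups, beside 17.9, 38.4 and 86.1 for the sum. Krt7 went down to 0 in each of the 3 tumor groups and Krt19 in Aldafermin+MYC tumors. The part of biliary cells in the Slc38a1 level was not tested. On annotation, 12.9% of the exon bases of Slc38a1 are overlapped by genes on the opposite strand.

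Slc38a1, Slc38a2 and Slc38a4 are neighbors. They are the only 3 protein-coding genes among 19 annotated genes in a stretch of 489296 bases of chromosome 15, all on the minus strand. Within this stretch, Slc38a4 fell to 15.9% to 18.6% of the liver mean and Slc38a2 to 48.6%, 68.6% and 50.3% in the 3 tumor groups, while Slc38a1 had mean levels of 193%, 162% and 323%, the last of these carried by 1 library.

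Taken per kilobase of canonical transcript, the 10 genes together had 1599 ± 178 (SD, n = 5) CPM per kb in livers and 362 ± 28.4, 390.3 ± 31.7 and 332 ± 29.5 in Aldafermin+MYC, FGF19+MYC and sgTrp53+MYC tumors. Slc38a3 and Slc38a4 held 87.8% ± 1.14 (SD, n = 5) of this total in livers and 44.2% ± 8.95, 38.5% ± 6.89 and 41.5% ± 7.18 in tumors. Slc7a5, Slc1a5 and Slc7a1 together held 0.233% ± 0.0450 in livers and 25.9% ± 5.65, 29.2% ± 4.90 and 27.7% ± 4.13 in tumors. No tumor overlapped the livers on either share, with 30.9% to 54.6% against 86.7% to 89.3% for the first pair. Slc3a2 made up 1.92% of the liver total and 15.8%, 14.4% and 12.9% of the tumor totals, while its own log2 fold changes were 0.92, 0.88 and 0.48. Using all annotated exons as length moved these shares to 83.7% in livers and 39.3%, 32.9% and 36.7% in tumors for Slc38a3 with Slc38a4. The summed levels also depend on composition scaling, whereas a share within a library does not. With library totals only, the log2 fold change over liver was -2.83, -2.76 and -3.06 for Slc38a3 and -1.59, -1.79 and -1.72 for Slc38a4.

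**Figure D4:**
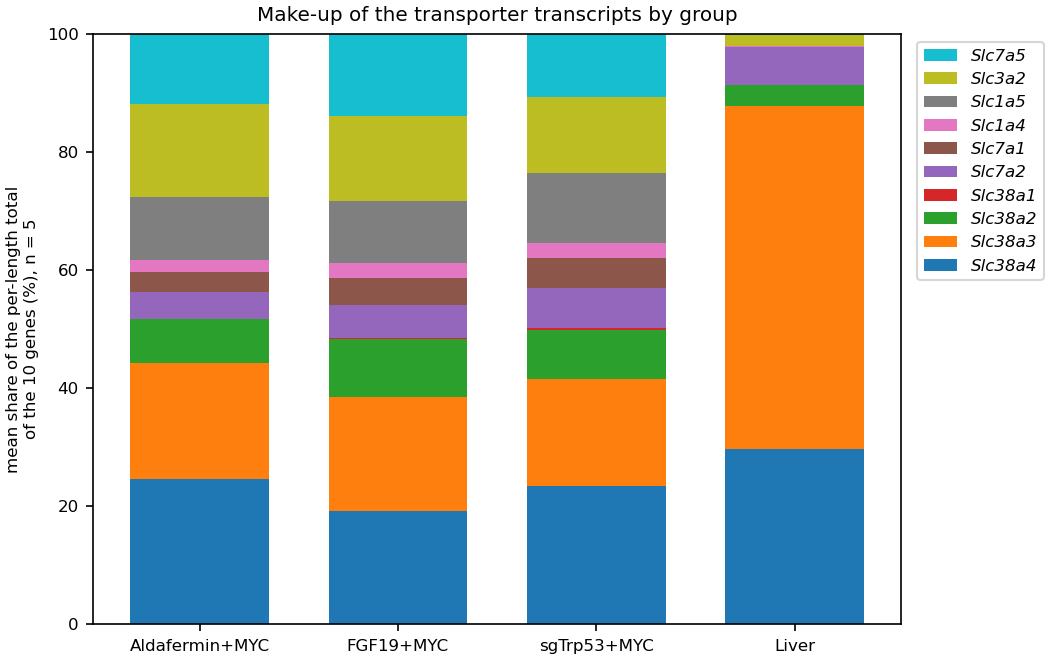
Mean share of each gene in the summed per-kilobase level of the 10 transporters (stacked bars, percent, 5 libraries per group). Slc38a3 and Slc38a4, at the bottom, fill 87.8% of the liver bar and 38.5% to 44.2% of the tumor bars.

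Between Aldafermin+MYC and FGF19+MYC tumors, the comparison that asks whether the analog and the hormone differ, no transporter passed the threshold, and neither did any other gene (0 of 14333 genes by the edgeR quasi-likelihood test, 0% of the background in either direction). DESeq2 made 96 calls and the likelihood ratio test in edgeR 59, with 0 of the 10 members among them in each case. At an unadjusted p under 0.05, 3 members passed, beside 7.31% of all genes. These were Slc38a2 (log2 fold change -0.50), Slc7a1 (-0.53) and Slc7a2 (-0.43), all with lower values under Aldafermin. None passed the adjusted threshold (smallest edgeR adjusted p in the main fit = 0.365, Slc38a2). Over the refits with other tests and settings, Slc38a2 kept its direction (-0.57 to -0.48) and was never called, the lowest adjusted p among these refits being 0.0534. Of the 10 genes, Slc38a2 alone had ranges that did not overlap, 102.9 to 146 CPM against 149.6 to 201 CPM, beside 1.46% of all genes. Slc3a2 differed least, 0.03. These intervals do not show that the groups are alike: for Slc7a5 the difference of -0.33 had a 95% interval from -0.74 to 0.08, and for Slc1a5 that of -0.08 ran from -0.45 to 0.30.

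Between FGF19+MYC and sgTrp53+MYC tumors, 1 of the 10 members was called, Slc7a5, which was higher in FGF19+MYC tumors by 0.59 (SE 0.20, adjusted p = 0.0461) (edgeR quasi-likelihood test), beside 15.8% of all genes called, 7.97% higher and 7.78% lower. Every FGF19+MYC tumor (160.4 to 211 CPM) was above every sgTrp53+MYC tumor (85.6 to 157 CPM), beside 10.9% of all genes with ranges apart. The call sat close to the threshold and was lost in a fit without FGF19+MYC replicates 1, 2, 3 or 4 or sgTrp53+MYC replicates 1 or 3, where the adjusted p was 0.0608 to 0.111 and the log2 fold change 0.48 to 0.60. Slc38a2 missed the threshold (0.45 (SE 0.16, adjusted p = 0.0553), edgeR), and passed it without FGF19+MYC replicate 1 (0.51, edgeR adjusted p = 0.0385). Slc3a2 had 0.40 (SE 0.17, adjusted p = 0.126) (edgeR). The other 7 lay between -0.99 and 0.35.

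Between Aldafermin+MYC and sgTrp53+MYC tumors, 0 of the 10 members were called (edgeR quasi-likelihood test), where 17.7% of all genes were called, 10.2% higher and 7.53% lower. At an unadjusted p under 0.05, 2 members passed, beside 32.2% of all genes. Slc3a2 stood at 0.43 (SE 0.17, adjusted p = 0.092) and Slc7a2 at -0.49 (SE 0.20, adjusted p = 0.0959) (both edgeR). DESeq2 called Slc7a2 (-0.53, adjusted p = 0.0365), and without sgTrp53+MYC replicate 2 edgeR called Slc3a2 (0.55, adjusted p = 0.0402). The ranges overlapped for all 10 genes, beside 9.75% of all genes with ranges apart. The share of reads over more than 1 gene differed between the tables as given above, and their part in these values was not tested.

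**Figure D5:**
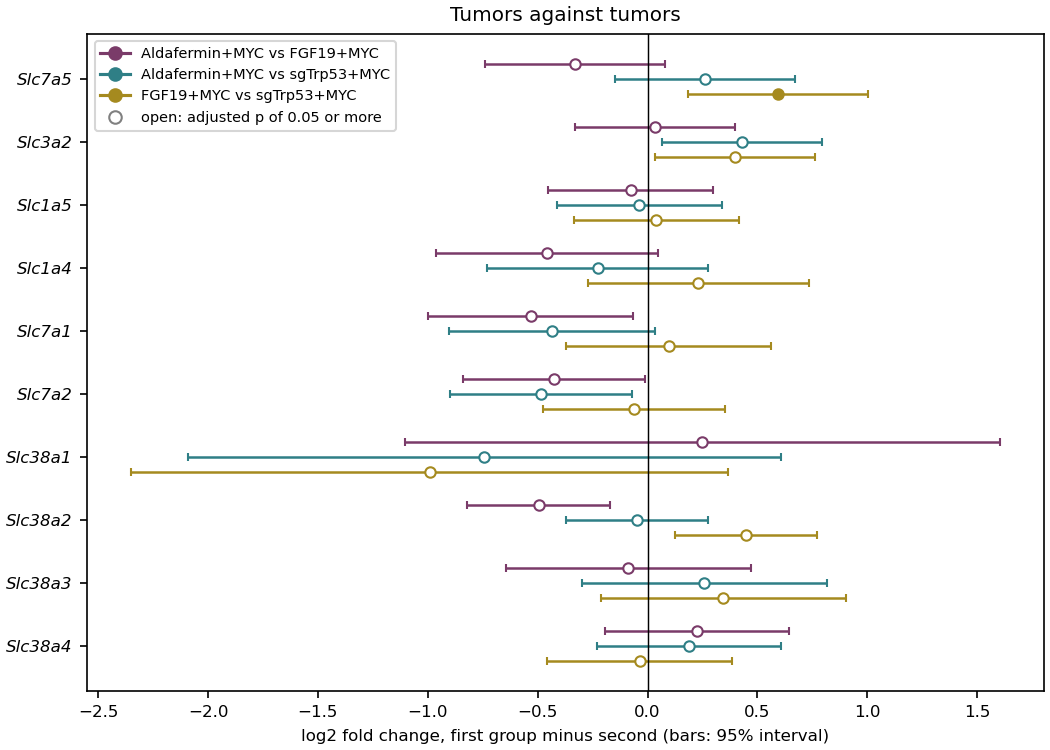
Log2 fold change of each transporter gene between pairs of tumor groups (points, with 95% intervals), filled where the edgeR adjusted p was under 0.05. Only Slc7a5 in FGF19+MYC against sgTrp53+MYC tumors is filled, and the intervals of Slc38a1 are the widest.

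The order of the 4 groups was therefore clearer for the step to liver than among tumors. By mean CPM, FGF19+MYC tumors ranked first for Slc7a5 (189.7), Slc1a5 (112), Slc1a4 (38.1) and Slc7a1 (132), Aldafermin+MYC tumors for Slc3a2 (146) and sgTrp53+MYC tumors for Slc38a1 (6.38). The place of Slc38a1 rested on sgTrp53+MYC replicate 2, without which the Aldafermin+MYC and FGF19+MYC groups exceeded sgTrp53+MYC tumors by 0.48 and 0.22 on the log2 scale, neither past the threshold. No step between neighboring tumor groups passed the threshold for any of the 10 genes (edgeR quasi-likelihood adjusted p of at least 0.0553). The step from liver to the nearest tumor group did for 9 of them, Slc38a1 being the exception. For Slc3a2 and Slc38a2 that call was lost in some refits, as given above.

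Among 40 other amino acid transporters of the same and related families, 20 passed the filter on low counts. Against livers, 8 were higher and 7 lower in Aldafermin+MYC tumors, 7 and 7 in FGF19+MYC tumors, and 8 and 8 in sgTrp53+MYC tumors (edgeR quasi-likelihood test). These 15, 14 and 16 of 20 stand beside 70.3%, 69.7% and 69.9% of all genes called. Their median log2 fold change was 0.08, -0.26 and -0.13, beside 0.13, 0.06 and 0.07 over all genes. By the mean over all 20 libraries, livers included, the 4 most abundant were Slc38a10, Slc16a10, Slc3a1 and Slc1a2. Slc16a10 (TAT1), an exporter of aromatic amino acids, fell with log2 fold changes of -1.47, -1.12 and -0.97 from 183 ± 31.4 CPM (SD, n = 5). Slc1a2 (GLT-1), a glutamate importer of perivenous hepatocytes, fell by log2 fold changes of -5.34, -4.56 and -6.09 from 232 ± 80.1 CPM to means of 5.85, 9.76 and 3.41 CPM (edgeR quasi-likelihood adjusted p of at most 0.00778). Slc38a10 fell in sgTrp53+MYC tumors (-0.53, adjusted p = 0.00197, edgeR) and had -0.13 and -0.24, not past the threshold, in Aldafermin+MYC and FGF19+MYC tumors, and Slc3a1, the heavy chain of the cystine transporter, had -0.51, -0.65 and -0.10, none past the threshold. Between tumors, 0 were called for Aldafermin+MYC against FGF19+MYC, 6 higher and 1 lower for Aldafermin+MYC against sgTrp53+MYC, and 4 higher and 0 lower for FGF19+MYC against sgTrp53+MYC. Of all genes, 10.2% were higher and 7.53% lower in the second of these comparisons and 7.97% and 7.78% in the last.

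Amino acid shortage acts on several of the 10 genes through ATF4, a transcription factor of the integrated stress response. Of 20 ATF4 response genes, 19 were tested. Against livers, 9 were higher and 5 lower in Aldafermin+MYC tumors, 10 and 5 in FGF19+MYC tumors, and 7 and 9 in sgTrp53+MYC tumors (edgeR quasi-likelihood test), with a median log2 fold change of 0.55, 0.90 and -0.90, beside 0.13, 0.06 and 0.07 over all genes. The 14, 15 and 16 of 19 called stand beside the 70.3%, 69.7% and 69.9% of all genes. By the mean over all 20 libraries, the 4 most abundant were Phgdh and Psat1, which make serine, Cth, which makes cysteine, and the transcription factor Atf5. Phgdh rose by log2 fold changes of 9.89, 9.63 and 9.26 from 0.965 ± 0.807 CPM in liver. Psat1 rose by log2 fold changes of 9.49, 9.31 and 8.92 from 1.43 ± 1.31 CPM (SD, n = 5, edgeR quasi-likelihood adjusted p of at most 3.04e-11 for both genes). Cth fell, with -1.28, -1.39 and -1.35, and so did Atf5, with -1.95, -1.60 and -2.34. Asns, which makes asparagine, was singled out after its values were seen. It rose by log2 fold changes of 8.47, 8.52 and 8.49 (edgeR quasi-likelihood adjusted p of at most 3.14e-10). Its mean went from 0.780 ± 1.10 CPM in livers to 261, 269 and 263 CPM, above Cth and Atf5 in each tumor group.

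Enzymes of glutamine and arginine use were read beside the carriers. Of 5 listed, 4 were tested, and 3 were lower than in livers in each tumor group (edgeR quasi-likelihood test). Of all genes, 31.9%, 32.9% and 33.0% fell. The other enzyme tested is not reported here, so the list is not shown to fall as a whole. Gls2, the liver glutaminase, fell (log2 fold changes of -2.15, -2.25 and -2.44) from 810 ± 161 CPM (SD, n = 5). Glul, which makes glutamine, fell (-2.41, -2.40 and -3.10), and Arg1, the arginase of the urea cycle, fell (-3.10, -2.96 and -2.64) from 2319 ± 268 CPM.

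Imported leucine, arginine and glutamine are sensed upstream of the kinase complex mTORC1. Of 26 genes of this pathway, all tested, 7 were higher and 8 lower in Aldafermin+MYC tumors than in livers, 6 and 12 in FGF19+MYC tumors, and 5 and 11 in sgTrp53+MYC tumors (edgeR quasi-likelihood test). These 15, 18 and 16 of 26 are no larger a share than the 70.3%, 69.7% and 69.9% of all genes called. Mtor, the kinase, fell (log2 fold changes of -1.09, -1.14 and -1.11) from 103 ± 18.8 CPM (SD, n = 5). Rheb, its activating GTPase, rose by log2 fold changes of 0.88, 0.89 and 1.22 from 39.4 ± 3.62 CPM. Rragc, a subunit of the Rag GTPases, had -0.15, -0.15 and 0.10, none past the threshold. Lamtor1, which anchors them to lysosomes, fell in sgTrp53+MYC tumors (-0.67, adjusted p = 0.00207, edgeR) and had 0.22 and -0.03, not past the threshold, in Aldafermin+MYC and FGF19+MYC tumors. Between tumors, 0 were called for Aldafermin+MYC against FGF19+MYC, 4 higher and 3 lower for Aldafermin+MYC against sgTrp53+MYC, and 2 and 2 for FGF19+MYC against sgTrp53+MYC, where 17.7% and 15.8% of all genes were called in the last 2 comparisons.

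For each transporter, the genes with the most similar pattern were found by the root mean square difference of centered log2 CPM over the 20 libraries, where a smaller value means a closer match. Slc7a5 lay closest to Rcc1 (0.222), Srm (0.251) and Nxpe3 (0.270), its own spread being 1.87. Slc7a1 was nearest to Rad54l (0.317), Gm42226 (0.335) and Eme1 (0.340). Slc1a5 was nearest to Slc39a5 (0.286), Nsl1 (0.319) and Plp2 (0.322), and Slc1a4 to Exosc1 (0.286), Exosc2 (0.305) and Mak16 (0.311). Slc3a2 was closest to Zdhhc12 (0.199), Tmem185b (0.207) and Syngr2 (0.214). Among the genes that fell, Slc38a3 was closest to Pm20d1 (0.286), Cyp2d22 (0.297) and C3 (0.339), Slc38a4 to Lonp2 (0.262), Dcaf11 (0.280) and Amdhd1 (0.282), Slc7a2 to Brap (0.195) and Gbe1 (0.266), and Slc38a2 to Tars (0.227), Susd6 (0.230) and Ercc5 (0.231). Slc38a1 had the largest distance to its nearest gene, Myof at 0.552, beside a spread of its own of 1.06. The spread of Slc3a2 and Slc38a2 was only 0.441 and 0.468, so their small distances need not be closer matches. The measure is mostly set by the step between tumor and liver that the transporters and their nearest genes share, so it is given as a description.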

How the data were processed

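RNA was sequenced from 15 tumors and 5 livers as stranded mRNA libraries. The authors aligned reads with HISAT2 to the mouse genome (mm39, as the submitters' processing notes name it) and used htseq-count with RefSeq gene models to assign them. The deposited values are whole-number counts without normalization, in 2 tables with 5 htseq-count summary lines each. These lines took 33.7% to 56.2% of the reads and were removed. All sample columns were used. Conditions and replicate numbers come from the sample titles. Replicates of a group differed by far more than sampling noise (chi-square of at least 13.9 for each degree of freedom).

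The 14333 genes that reached 1 CPM in 5 or more libraries were tested with edgeR 4.0.16 in R 4.3.3. Libraries were normalized by TMM, 1 quasi-likelihood model with 4 groups was fitted, and p-values were adjusted over all genes tested after Benjamini and Hochberg, the threshold being 0.05. CPM values are TMM-normalized, and log2 fold changes are the first group minus the second. Standard errors were derived from the F statistic. The procedure was run on simulated data in which few genes changed, as many up as down. That setting does not check the composition scaling between tumors and livers, and no result is drawn from it. Gene coordinates and lengths are from GENCODE M39 on GRCm39, whereas counting used RefSeq. The intervals cover the spread between samples. The 10 genes, the other lists and the markers were chosen with earlier results of these data known. Named in addition were the 4 most abundant genes of each list and the 3 closest patterns of each transporter, of which 2 genes are not reported here.

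Alternatives were DESeq2 1.42.0, edgeR's likelihood ratio test, RLE factors, library totals, no filter, a 5 CPM filter, only the 2 groups compared, only the first table, a replicate block, and each library left out in turn. Leaving out 2 tumors together was added after the data were seen. Protein sequences were not used here.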

Additional observations from a re-analysis of the deposited data

Results flagged for a closer look

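In each of the 40 sets of 5 libraries (10 genes, 4 groups), the highest and lowest value was compared with the range of its group by Dixon's ratio at its 95% critical value for 5 samples. This marked 3 sets, where chance alone gives about 2. Slc38a1 in sgTrp53+MYC replicate 2 had 21.0 CPM, against 0.626 to 4.05 CPM in the other 4 libraries. The same library had 760 CPM of summed biliary markers, and the call of Slc38a1 against livers was lost without it. Slc38a3 in FGF19+MYC replicate 5 had 447 CPM, against 208 to 243 CPM in the others, and this library had the highest summed hepatocyte markers of the 15 tumors, 27383 CPM. Slc1a5 in FGF19+MYC replicate 1 had 159 CPM, against 90.0 to 109.7 CPM in the other 4, and Slc1a4 was also highest in this library, at 54.0 CPM.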

How the results depend on the processing

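Over the 60 gene-level log2 fold changes, 548 of 570 refits under another setting and 560 of 600 with 1 library left out kept their direction and their side of the threshold. Between FGF19+MYC and sgTrp53+MYC tumors, the 1 member called became 2 with DESeq2 and with a 5 CPM filter, and 0 with library totals, without a filter on low counts and with only the 2 groups compared. It was 0 to 1 with each library left out. Between Aldafermin+MYC and sgTrp53+MYC tumors, the 0 members called became 1 with DESeq2 and 0 to 1 with each library left out, the 1 being found without sgTrp53+MYC replicate 2. Counts over all genes moved too. Between Aldafermin+MYC and FGF19+MYC tumors, the 0 genes called became 96 with DESeq2, 59 with the likelihood ratio test, 2 with RLE factors, 18 with the first table only, 6 without Aldafermin+MYC replicate 2 and 29 without Aldafermin+MYC replicate 4. With only the 2 groups compared, the 2534 and 2258 genes called in Aldafermin+MYC and FGF19+MYC against sgTrp53+MYC tumors became 1076 and 1342. With library totals, genes higher in tumors than in livers went from 5506 of 10083 called to 8618 of 11023 in the Aldafermin+MYC group, and similarly in the others. Slc38a1 against livers was called with library totals in Aldafermin+MYC (1.83) and FGF19+MYC tumors (1.58).

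Direction turned in these values. Slc38a2 in FGF19+MYC tumors against livers became 0.31 with library totals. Slc3a2 in Aldafermin+MYC against FGF19+MYC tumors became -0.0011 with DESeq2, -0.0012 with RLE factors and -0.0056 with only the 2 groups compared. In FGF19+MYC against sgTrp53+MYC tumors, Slc1a5 became -0.017 with library totals and -0.065 without a filter, and Slc7a1 -0.010 without a filter. With Aldafermin+MYC replicate 4 and FGF19+MYC replicate 5 both left out, the Aldafermin+MYC minus sgTrp53+MYC value became 0.082 for Slc1a5 and -0.030 for Slc38a3. With each library left out, the Aldafermin+MYC minus FGF19+MYC value ran from -0.12 to 0.10 for Slc3a2, -0.16 to 0.082 for Slc1a5 and -0.38 to 0.17 for Slc38a3. With each library left out, the Aldafermin+MYC minus sgTrp53+MYC value ran from -0.12 to 0.081 for Slc1a5, -0.031 to 0.35 for Slc38a3, -0.032 to 0.30 for Slc38a4, -1.04 to 0.48 for Slc38a1 and -0.15 to 0.0096 for Slc38a2. With each library left out, the FGF19+MYC minus sgTrp53+MYC value ran from -0.12 to 0.15 for Slc1a5, -0.14 to 0.083 for Slc7a2, -0.11 to 0.080 for Slc38a4, -0.0051 to 0.20 for Slc7a1 and -1.29 to 0.22 for Slc38a1. None of these values passed the threshold, and the cause was not tested.

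No label ties samples that share a replicate number to a common animal, litter or day. Over 30 pairs of libraries with the same number, correlations ran from -0.333 to 0.333 with a median of -0.023, and 6 were above 0.1. In 7 of these 30 pairs, a library correlated best with its own number among the libraries of the other group. With the replicate number as a block, Slc7a5 lost its call between FGF19+MYC and sgTrp53+MYC tumors (0.59, edgeR adjusted p = 0.0719), leaving 0 members, as did Slc38a1 in sgTrp53+MYC tumors against livers (1.17, edgeR adjusted p = 0.153). The block changed no other call of the 10 genes. Counts were low for Slc38a1, 18 to 214 per library outside sgTrp53+MYC tumors and 38 to 1499 within that group. They were also low in livers for Slc7a1, 26 to 38, and for Slc1a5, 46 to 87.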

Other observations

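Slc3a2 also serves as the heavy chain of other SLC7 carriers, and 3 of these were tested, Slc7a6, Slc7a7 and Slc7a8. These genes were singled out after their values were seen. Slc7a6 (y+LAT2), which exchanges cationic for neutral amino acids, rose from 0.690 ± 0.305 CPM in livers to 59.4 ± 10.3, 60.6 ± 7.01 and 54.8 ± 17.4 CPM (SD, n = 5) in Aldafermin+MYC, FGF19+MYC and sgTrp53+MYC tumors. Its log2 fold changes were 6.38, 6.41 and 6.26 (edgeR quasi-likelihood adjusted p of at most 1.27e-12). Slc7a7 (y+LAT1), its paralog, rose by log2 fold changes of 2.31, 2.15 and 1.77 from 4.96 ± 1.26 CPM (edgeR quasi-likelihood adjusted p of at most 4.21e-08). Slc7a8 (LAT2), the second leucine exchanger, rose in Aldafermin+MYC tumors by 1.72 (SE 0.43, edgeR adjusted p = 0.0015) and in sgTrp53+MYC tumors by 1.07 (SE 0.42, edgeR adjusted p = 0.0301). In FGF19+MYC tumors Slc7a8 had 0.85 (SE 0.42, edgeR adjusted p = 0.0812). Slc7a10 and Slc7a11, further light chains of Slc3a2, did not pass the filter on low counts.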
